A study of Mus musculus with 15 samples.

Results

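The 10 genes described here encode transcription factors and 1 cofactor that steer blood stem cells toward erythroid, megakaryocytic, granulocytic, monocytic or dendritic fates: Gata1, Zfpm1, Klf1, Nfe2, Fli1, Gfi1, Gfi1b, Spi1, Cebpa and Irf8. They are 10 of 46102 genes in the count tables and were picked by name with their exon reads in these libraries already known, so their levels and changes are given as a description. The p-values printed for them come from fits over all genes and place each gene in those fits. None is given for Gata1 and Gfi1 in the cultured cells, the pattern that led to the choice.

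The libraries came from hematopoietic stem cells (HSCs) of the bone marrow of wild-type C57BL/6 mice aged 8 to 10 weeks, with 100 cells sorted for each. Freshly sorted HSCs came from untreated mice (Untreated, n = 4) or from mice at day 4 after 5-fluorouracil (5-FU day4, n = 4), which kills dividing blood cells. Cultured HSCs were kept without (Control, n = 3) or with nifedipine (Nifedipine, n = 4), a blocker of L-type calcium channels, and were sorted from cells that had divided no more than 3 times. The sources used here give neither doses nor the length of culture. Nothing in the labels says whether replicates came from separate mice or cultures. The p-values thus set group differences only against the spread among these samples, and that spread may be technical. Exon reads per library lay between 6171730 and 26673045.

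GATA1 binds GATA letters in DNA and, with its cofactor FOG1 (the product of Zfpm1), turns on erythroid and megakaryocytic genes. PU.1 (the product of Spi1) and C/EBP alpha (Cebpa) drive myeloid genes, and GATA1 and PU.1 are known to bind and oppose each other. GFI1 and GFI1B are related zinc finger repressors that recruit the same histone demethylase complex and share a DNA core. GFI1 is typical of stem cells and granulocytic and lymphoid cells, and GFI1B of erythroid and megakaryocytic cells.

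Promoter sequence is shown for Gata1 and for the paralogs Gfi1 and Gfi1b, because the pattern in the cultured cells turns on these 3 genes. RefSeq windows on GRCm38.p6 matched 7 of the 10 genes, with 9 windows. Spi1, Nfe2 and Fli1 had none. The 250 bases before each start are written 5′ to 3′ on the strand of the gene, the minus strand in all 3 cases. Capitals mark the GATA letters AGATAA or TGATAA and the GFI1 core AATC, on either strand (read on the other strand as TTATCT or TTATCA, and as GATT).
Gata1 (chrX:7967911-7968160): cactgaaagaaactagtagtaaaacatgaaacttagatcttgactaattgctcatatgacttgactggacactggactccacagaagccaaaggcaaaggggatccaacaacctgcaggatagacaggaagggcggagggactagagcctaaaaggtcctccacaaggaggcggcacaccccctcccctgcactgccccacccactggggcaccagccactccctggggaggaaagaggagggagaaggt
Gfi1 (chr5:107725806-107726055): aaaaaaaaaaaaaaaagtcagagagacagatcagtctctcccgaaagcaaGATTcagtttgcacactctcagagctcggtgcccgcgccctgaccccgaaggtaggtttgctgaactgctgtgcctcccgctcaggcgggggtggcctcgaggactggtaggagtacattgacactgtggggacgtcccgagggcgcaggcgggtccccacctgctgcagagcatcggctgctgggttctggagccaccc
Gfi1b (chr2:28621983-28622232): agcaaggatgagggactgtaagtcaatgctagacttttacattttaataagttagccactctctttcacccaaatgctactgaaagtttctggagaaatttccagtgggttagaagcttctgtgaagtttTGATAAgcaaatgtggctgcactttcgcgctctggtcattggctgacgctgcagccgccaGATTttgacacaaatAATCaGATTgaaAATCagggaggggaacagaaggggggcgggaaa
The Gata1 window lies inside the gene's interval in the deposited tables and held neither kind of letters. The Gfi1 window shown, 1 of 2 for this gene, also lies mostly inside its gene's interval, and the other lies wholly inside. The window shown held 1 AATC core, 200 bases before the start, and the other window held 0. Gfi1b held TGATAA at 120 bases before the start and 4 AATC cores at 60, 45, 40 and 33 bases before it. Among the genes not shown, Klf1 held TTATCA at 80 bases and 1 AATC core at 62 bases before its start. The 2 Irf8 windows held 3 and 1 AATC cores, and Zfpm1 and Cebpa held neither kind of letters. Of 32817 promoter windows of this length, 16.6% held AGATAA or TGATAA and 69.0% held AATC, so an AATC core is common. A match is a string of letters and not a measured binding site.

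Some fresh libraries stood apart in the transcripts of other cells. Summed over 10 endothelial and stromal markers, CPM values (exon reads scaled to the size of the library after TMM factors) were 695, 1736, 66.6 and 513 in Untreated 1 to 4, and 43.9, 56.7, 60.8 and 395 in 5-FU day4 1 to 4. Cultured libraries lay between 22.0 and 32.8 CPM. The 10 mitosis genes listed together gave 158 to 704 CPM in Untreated libraries, 2613 to 3013 after 5-FU, 2692 to 2939 in Control and 1867 to 2142 with nifedipine. Mast cell and basophil markers summed to at most 1.47 CPM in any library. All 12 HSC identity genes had reads in each group, with sums of 5219 to 5628 CPM in Untreated, 3640 to 3933 after 5-FU, 1586 to 1651 in Control and 2475 to 2745 with nifedipine.

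**Figure D1:**
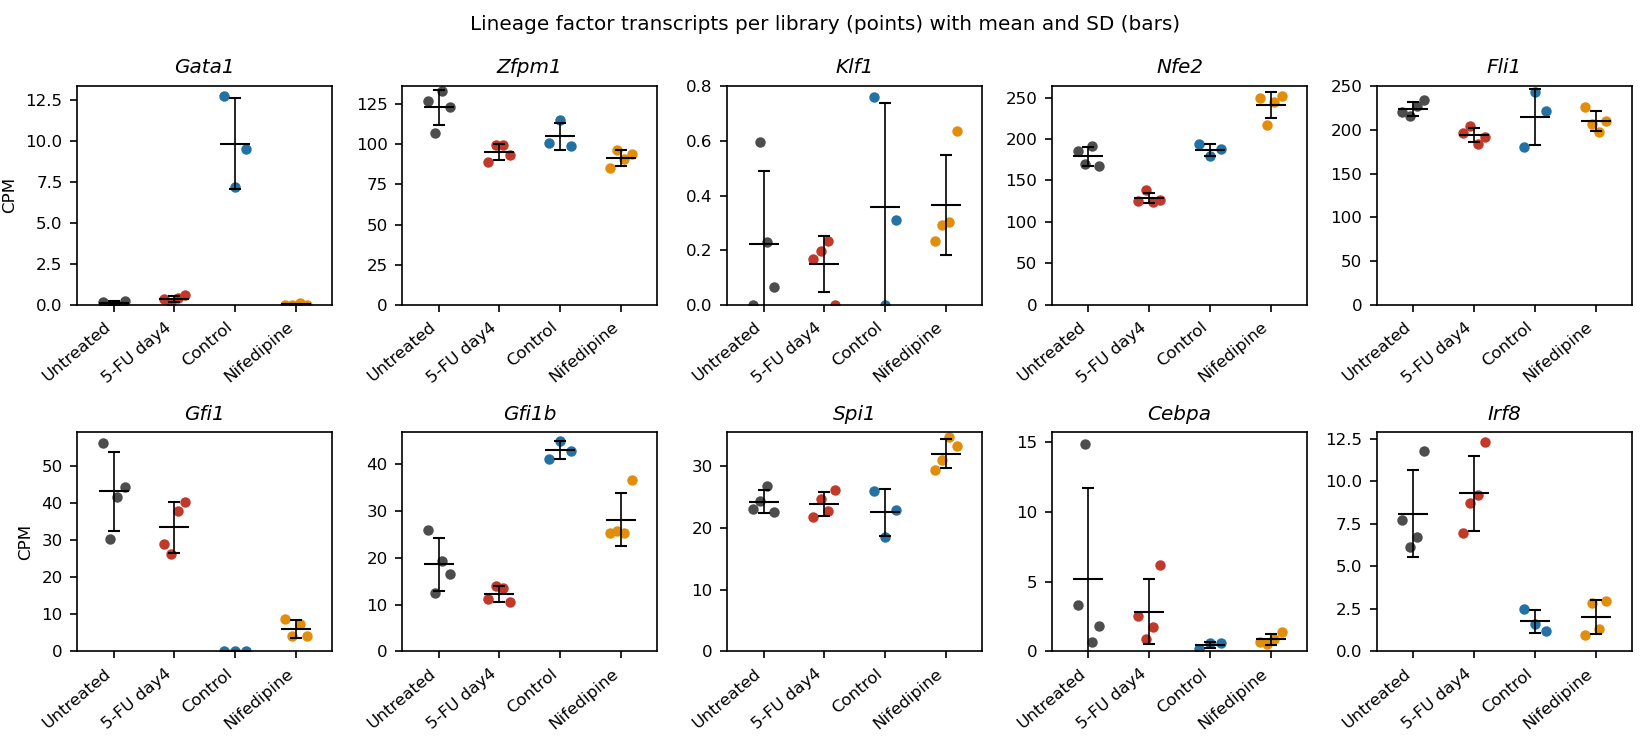
Each panel plots 1 gene's CPM on a linear axis from 0, with 1 point per library and the group mean and SD as bars (n = 4, 4, 3 and 4). Gata1 is high in Control libraries and Gfi1 is at 0 there, while Nfe2 and Spi1 are highest with nifedipine.

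Gata1 was nearly silent in fresh HSCs, was present in cultured Control cells and was nearly silent again in cultured cells given nifedipine. Its gene lies at chrX:7959260-7976682 in the deposited coordinates. Exon reads were 3, 0, 0 and 4 in Untreated libraries and 6, 1, 7 and 9 after 5-FU. The Control libraries had 301, 132 and 183 reads, and the Nifedipine libraries had 0, 0, 2 and 0. Every Control library exceeded every other library, and the lowest Control value was 7.19 CPM against at most 0.571 CPM elsewhere. The mean was 9.81 ± 2.78 CPM (SD, n = 3) in Control and 0.0253 ± 0.0507 CPM (SD, n = 4) with nifedipine. On summed reads, Control was 396-fold above Nifedipine, with an exact 95% counting interval of 109 to 3275 that covers counting error only. Control cells stood 82.6-fold above Untreated cells by reads (exact 95% interval 39.9 to 206), but culture, sorting and library set cannot be told apart in that comparison. In bulk libraries, fewer cells with Gata1 and less Gata1 RNA per cell cannot be told apart either.

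Gfi1, at chr5:107716655-107726031, ran the other way. Untreated libraries had 1008, 204, 725 and 683 reads, and 5-FU libraries had 525, 266, 647 and 636. All 3 Control libraries had 0 reads. With nifedipine the reads were 186, 69, 146 and 82. Fresh libraries were thus high, Control libraries empty and Nifedipine libraries intermediate, with no overlap between these 3 levels. Means were 43.1 ± 10.6 CPM in Untreated (SD, n = 4), 33.4 ± 6.77 after 5-FU (SD, n = 4) and 6.03 ± 2.37 with nifedipine (SD, n = 4). Against a floor of 3 reads over the Control group, Gfi1 was at least 125-fold higher with nifedipine and Control was at least 930-fold lower than Untreated. The 5-FU change of -0.35 ± 0.19 (log2, SE) did not pass in edgeR's quasi-likelihood test (adjusted p = 0.144). Without Untreated 2, the shallowest library, it was -0.47 with an adjusted p of 0.0397.

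**Figure D2:**
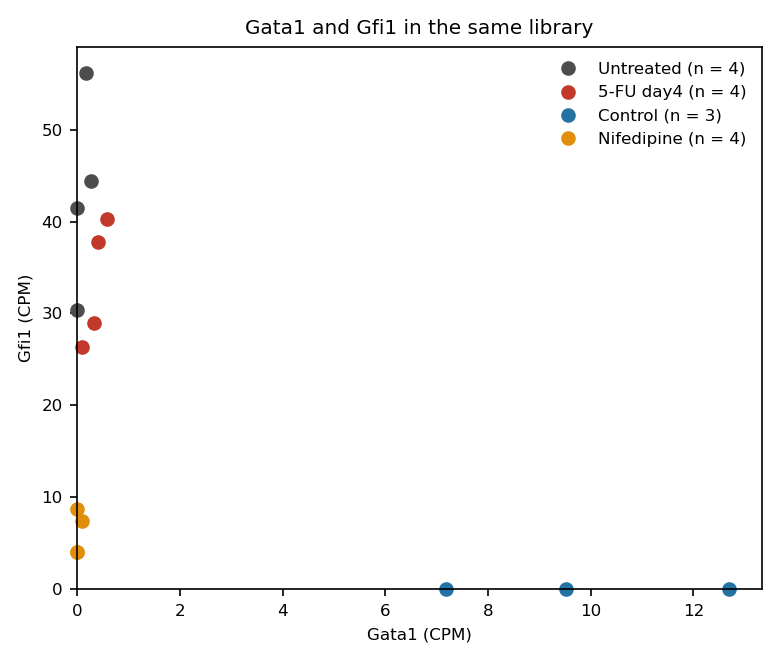
Gata1 CPM is plotted against Gfi1 CPM, 1 point per library, on linear axes. The 3 Control libraries lie on the Gata1 axis at 0 Gfi1, all other libraries lie close to the Gfi1 axis, and 2 Nifedipine points with about 4 CPM of Gfi1 coincide.

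Gfi1b, the paralog, was highest in Control cells. Reads were 464, 84, 339 and 255 in Untreated, 203, 142, 231 and 167 after 5-FU, 973, 828 and 826 in Control, and 543, 439, 499 and 749 with nifedipine. The 2 cultured groups did not overlap, and the highest Nifedipine library, Nifedipine 4, reached 36.7 CPM against 41.1 in the lowest Control library. Gfi1b fell by 0.61 ± 0.13 with nifedipine on the log2 scale (SE, edgeR adjusted p = 0.000709) and was higher in Control than in Untreated by 1.25 ± 0.20 (adjusted p = 0.000283). Between the fresh groups, which overlapped, Gfi1b fell by 0.58 ± 0.21 after 5-FU (adjusted p = 0.0383), a call lost in 9 of 18 alternatives. Per exon length (RPKM), Gfi1 made up 47.6% to 64.9% of Gfi1 plus Gfi1b in fresh libraries, 0 in Control and 5.04% to 14.2% with nifedipine.

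Zfpm1, whose product FOG1 binds GATA1, was abundant in all groups, also where Gata1 was not. Its mean was 123 ± 10.9 CPM in Untreated, 95.4 ± 5.02 after 5-FU, 105 ± 8.56 in Control and 91.6 ± 4.86 with nifedipine (SD). Single libraries ran from 107 to 133 CPM in Untreated and from 89.2 to 99.6 after 5-FU, with no overlap. Zfpm1 fell by 0.34 after 5-FU (log2, edgeR adjusted p = 0.00251). The fall of 0.20 with nifedipine passed narrowly (adjusted p = 0.0446) and was lost in 7 of 16 alternatives. Klf1, an erythroid factor that acts on globin genes, had at most 18 reads in any library and was not tested in the pairwise comparisons. Its Control reads were 18, 0 and 6 and its Nifedipine reads 5, 5, 6 and 13, which overlap.

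Nfe2 and Fli1, factors of the megakaryocytic line, were the most abundant of the 10 genes per exon length in every group. Nfe2 had 3332, 1140, 3340 and 2588 reads in Untreated and 2267, 1395, 2117 and 2011 after 5-FU. In culture it had 4581, 3286 and 3609 reads in Control and 5337, 3708, 4831 and 5146 with nifedipine. On the CPM scale neither pair of groups overlapped: 168 to 191 in Untreated lay above 124 to 138 after 5-FU, and 217 to 252 with nifedipine lay above 179 to 194 in Control. Nfe2 fell by 0.45 ± 0.06 after 5-FU (log2, SE, edgeR adjusted p = 0.000174) and rose by 0.37 ± 0.07 with nifedipine (adjusted p = 0.000175). Its 2 changes differed by 0.84 ± 0.09 in the fit of all 15 libraries (adjusted p = 4.92e-07). Fli1 fell by 0.18 after 5-FU (edgeR adjusted p = 0.0131) and differed by -0.03 ± 0.08 with nifedipine (adjusted p = 0.804). Its Control libraries, at 180, 243 and 222 CPM, spanned all 4 Nifedipine values. With the read total behind the deposited RPKM values as library size, Zfpm1 and Gfi1b lost their 5-FU calls and Fli1 stood at 0.02, while Nfe2 stayed called at -0.25. That scaling moved the median of all genes from -0.02 to 0.17 in the 5-FU comparison.

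Spi1 overlapped between the fresh groups and Control and was higher with nifedipine. CPM values were 23.1, 24.3, 26.8 and 22.6 in Untreated, 21.8, 24.7, 22.7 and 26.1 after 5-FU, 26.0, 18.5 and 22.9 in Control, and 29.4, 30.9, 34.6 and 33.2 with nifedipine. All 4 Nifedipine libraries lay above all other libraries. Spi1 rose by 0.51 ± 0.13 (log2, SE, edgeR adjusted p = 0.00273), and its change after 5-FU was 0.00 ± 0.10 (adjusted p = 0.975). The nifedipine change exceeded the 5-FU change by 0.53 ± 0.16 (adjusted p = 0.00946), a call lost in 3 of 24 alternatives. Per exon length, Spi1 stood 2.17, 2.73 and 2.56 times above Gata1 in the 3 Control libraries.

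Cebpa, a driver of granulocytic fate, was low and uneven. Its reads were 60, 100, 12 and 28 in Untreated, 46, 9, 30 and 98 after 5-FU, 4, 11 and 11 in Control, and 14, 9, 17 and 29 with nifedipine. The highest fresh values, 14.9 CPM in Untreated 2 and 6.21 CPM in 5-FU day4 4, fell in the libraries with the most endothelial and stromal transcripts of their groups, and the lowest Untreated value, 0.687 CPM, in the library with the fewest. Among the 5-FU libraries the order did not match at the low end: 5-FU day4 1, with the fewest such transcripts, had 2.54 CPM of Cebpa, and 5-FU day4 2 had the lowest, 0.89 CPM. The part of those transcripts in the Cebpa values was not tested. Cebpa was lower in Control than in Untreated, with a log2 change of -3.45 ± 1.07 (SE, edgeR adjusted p = 0.0148), which was -2.09 without Untreated 2 (adjusted p = 0.0317). The call was lost without Control 1 (-3.04, adjusted p = 0.0611) and with limma-voom (-2.37, adjusted p = 0.101). Its 5-FU difference of -0.76 ± 0.85 (adjusted p = 0.485) became 0.59 without Untreated 2 (adjusted p = 0.52). The nifedipine difference was 0.97 ± 0.72 (adjusted p = 0.278).

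Irf8, a factor of monocytic and dendritic cells, was lower in both cultured groups than in both fresh groups. CPM values were 7.75, 6.11, 6.70 and 11.8 in Untreated and 6.97, 8.70, 9.18 and 12.3 after 5-FU. They were 2.49, 1.58 and 1.20 in Control and 0.98, 2.86, 1.32 and 2.94 with nifedipine. The cultured groups overlapped each other and neither overlapped a fresh group. Irf8 fell by 2.15 ± 0.37 between Untreated and Control (log2, SE, edgeR adjusted p = 0.000535), and differed by 0.20 ± 0.51 with nifedipine (adjusted p = 0.779).

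**Figure D3:**
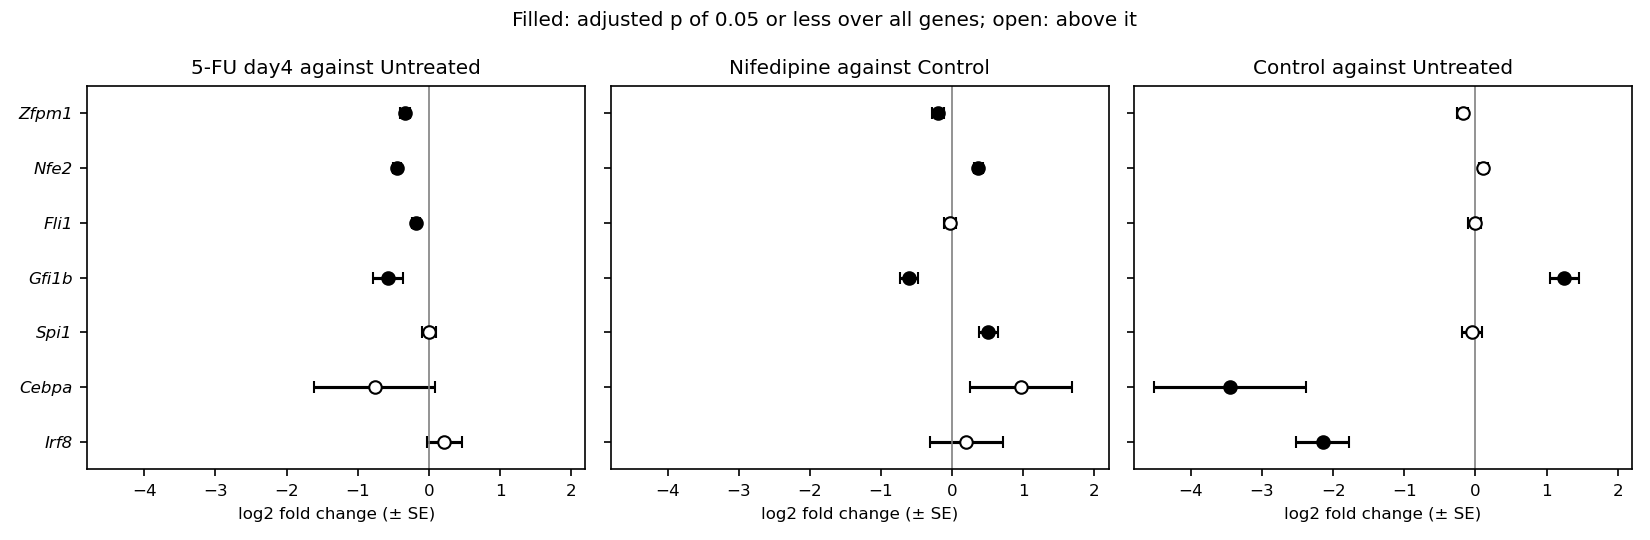
Log2 fold changes with SE are plotted for 7 of the genes in 3 comparisons, filled where the adjusted p was 0.05 or less. Gata1, Gfi1 and Klf1, with few or 0 reads in a group, are not drawn, and Nfe2 lies below 0 after 5-FU and above 0 with nifedipine.

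Counted over the 10 genes, 8 were tested after 5-FU, of which 4 were called lower in edgeR (23.8% of all genes tested were) and 0 higher (26.8%), with 50.5% of all genes called. Of the 8 tested, 0 were higher by DESeq2 or limma-voom, and 0 had an unadjusted p under 0.05 in that direction. Gata1 and Klf1 were not tested there. Gata1 had 23 reads after 5-FU against 7 in Untreated, a ratio of 3.09 (exact 95% counting interval 1.29 to 8.54). That interval covers counting error only, and the groups overlapped, at 0.0988 to 0.571 CPM after 5-FU and 0 to 0.26 CPM in Untreated. With nifedipine 9 were tested, 3 were called higher (25.8% of all genes) and 3 lower (24.2%; 49.9% in all), and 6 did not overlap between the groups (51.2%). Between Control and Untreated 9 were tested, 2 were called higher (35.8%) and 3 lower (36.2%), and 5 did not overlap (72.0%). After 5-FU 3 did not overlap (47.5%). In the difference of the 2 changes all 10 were tested, 3 were higher (29.0%) and 1 lower (26.4%), with 55.3% of all genes called. In the comparisons with Control, Gata1 passed the filter on low counts through the Control libraries and Gfi1 through the other group, so both had to differ. The comparison of Control with Untreated shares its libraries with the other pairwise comparisons.

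Genes downstream or beside these factors were taken from lists. With nifedipine, 12 of 13 tested granulocyte and monocyte genes were called higher, beside 25.8% of all genes. Lower calls were 0, beside 24.2% (also 0 at an unadjusted p under 0.05, by DESeq2 and by limma-voom). The median log2 change was 1.60 against 0.02 over all genes. The list holds 26 genes, and Mpo, Elane, Ly6c2, S100a8 and S100a9 had 0 reads in both cultured groups. Csf3r, the G-CSF receptor, rose by 3.02 ± 0.14 from 4.52 ± 0.417 to 36.8 ± 2.81 CPM. Il6ra, the IL-6 receptor, rose by 3.34 ± 0.39, and Lyz1, a lysozyme, by 2.07 ± 0.26. Their adjusted p-values in edgeR were 2.73e-11, 1.30e-06 and 3.28e-06. With a filter of 10 CPM, 5 genes of the list were called higher.

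Of 15 tested erythroid genes, 8 were called lower with nifedipine in edgeR (24.2% of all genes were) and 0 higher (25.8%). Their median log2 change was -0.85 against 0.02 over all genes. At an unadjusted p under 0.05 and by DESeq2, 1 was higher, and by limma-voom 0. A filter of 10 CPM left 5 called lower. Epor, the erythropoietin receptor, fell by 1.92 ± 0.31 (edgeR adjusted p = 5.49e-05). Hbb-bs, a beta globin, fell by 1.38 ± 0.38 (adjusted p = 0.00533). Summed over the list, Control libraries gave 1230 to 1236 CPM and Nifedipine libraries 858 to 868. In Untreated 1 to 4 the sum was 857, 2692, 846 and 3020 CPM, with 0 to 4 Gata1 reads, and Hbb-bs stood at 411 ± 472 CPM there.

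Megakaryocyte and platelet genes went both ways with nifedipine, 4 higher and 6 lower of 18 tested, beside 25.8% and 24.2% of all genes. A filter of 10 CPM left 2 called lower. Itga2b, the CD41 integrin, fell by 2.50 ± 0.14 (edgeR adjusted p = 2.2e-10) and Pf4, a platelet chemokine, by 1.56 ± 0.33 (adjusted p = 0.000752). Pf4 was uneven in Control, at 24.9 ± 17.7 CPM against 8.40 ± 2.17 CPM with nifedipine. Selp, which encodes P-selectin, rose by 2.48 ± 0.17 (adjusted p = 3.22e-09). Among other lineage transcription factors, 14 of 21 were higher and 1 lower. Mitf rose by 2.33 ± 0.20 and Id2, an inhibitor of helix-loop-helix factors, by 1.74 ± 0.16. Gata2, the GATA factor of stem cells, was the one that fell, by 0.51 ± 0.07, from 230 ± 15.1 to 161 ± 11.4 CPM.

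Partners and corepressors were split, with 7 higher and 9 lower of 24 tested with nifedipine, beside the same shares of all genes. Cbfa2t3, a corepressor of the GATA1 and TAL1 complex, rose by 0.96 ± 0.08 with nifedipine. Tal1 fell by 0.59 ± 0.08, and the corepressor genes Hdac2 and Mta2 by 0.65 ± 0.08 and 0.63 ± 0.06. Of 11 tested genes reported as GFI1 targets, 7 were higher and 1 lower with nifedipine. They included Cdkn1a, a cell cycle inhibitor, at 2.37 ± 0.14 and Csf1, a macrophage growth factor, at 2.12 ± 0.23. Id2 is on this list too. After 5-FU, 2 of the 11 were higher and 5 lower, beside 26.8% and 23.8% of all genes. Between Control and Untreated, 1 was higher and 9 lower, beside 35.8% and 36.2%. A link of these genes to Gfi1 was not tested.

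After 5-FU, 26.8% of all genes were called higher and 23.8% lower. Of 24 partners and corepressors 8 were higher and 10 lower, which became 13 and 6 with the RPKM read total and 12 and 7 with the length and GC offset. Of 16 granulocyte and monocyte genes 0 were higher in edgeR (0 at an unadjusted p under 0.05, 0 by DESeq2 and 1 by limma-voom) and 6 were lower, Csf3r falling by 0.98 ± 0.09 (edgeR adjusted p = 1.37e-05). Erythroid genes split 4 and 4 of 17, with a median log2 change of -0.77 against -0.02 over all genes. Epor rose by 1.00 ± 0.25 (edgeR adjusted p = 0.00636). Hbb-bs fell by 6.54 ± 1.66 (adjusted p = 0.00741), from 411 ± 472 CPM in Untreated to 4.88 ± 4.99 CPM. The number of erythroid genes called lower ran from 2 to 10 over the alternatives. Of 22 other lineage factors 3 were higher and 13 lower, and the latter became 7 with the RPKM read total. Of 8 dendritic genes 1 was higher and 6 lower, with Flt3 falling by 2.18 ± 0.33 (adjusted p = 0.000319).

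**Figure D4:**
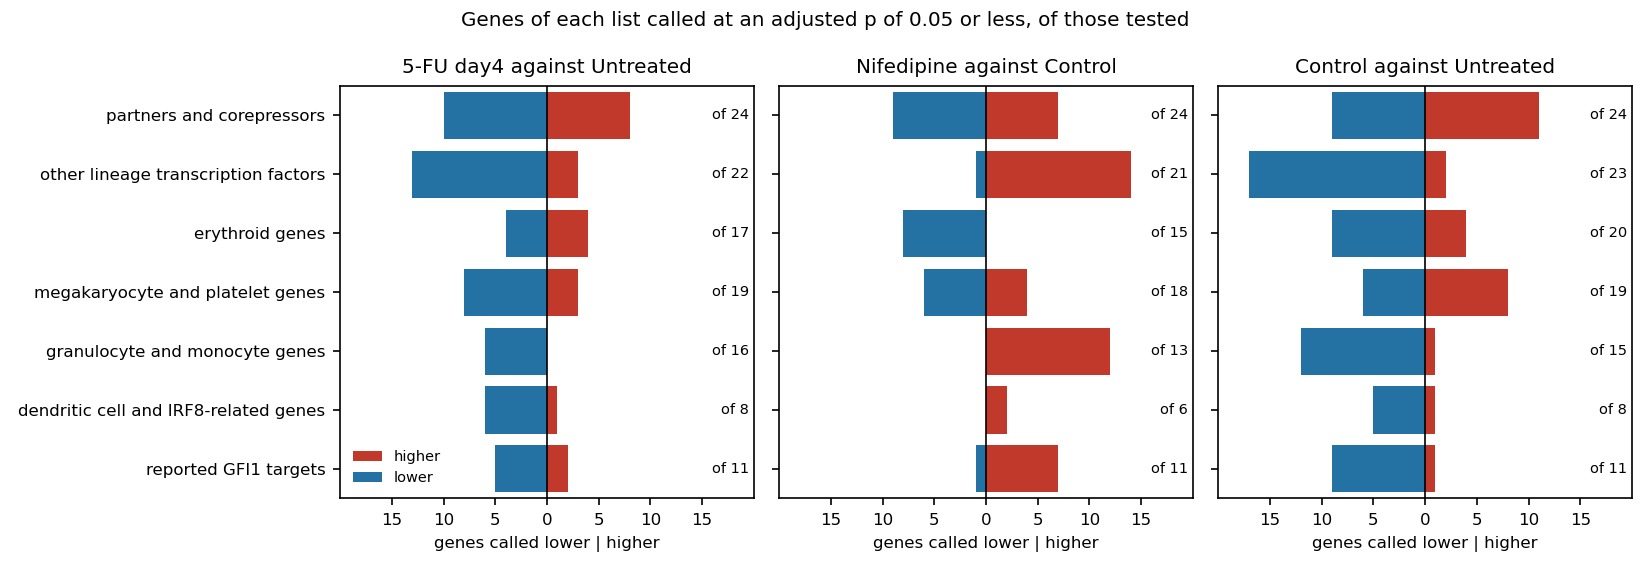
Bars count the genes of each list called lower (left of 0) and higher (right of 0) at an adjusted p of 0.05 or less, with the number tested at the right of each panel. With nifedipine, 12 of 13 granulocyte and monocyte genes are higher and 8 of 15 erythroid genes are lower. Of all genes tested, 25.8% were higher and 24.2% lower.

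Between Control and Untreated, 12 of 15 granulocyte and monocyte genes and 17 of 23 other lineage factors were lower, with 1 and 2 higher, where 36.2% of all genes were called lower and 35.8% higher. Csf3r fell by 4.89 ± 0.09, from 139 ± 4.56 to 4.52 ± 0.417 CPM. Erythroid genes split, with 4 higher and 9 lower of 20, and the latter became 6 without Untreated 2 or without Untreated 4, the libraries with the most erythroid transcripts, 5 without Control 1, 3 with limma-voom and 4 with a 10 CPM filter. That filter left 6 granulocyte and monocyte genes lower. Tfrc, the transferrin receptor, rose by 2.45 ± 0.14 (edgeR adjusted p = 2.71e-07), while the alpha globin gene Hba-a1 was at 177 ± 198 CPM in Untreated and had 0 reads in Control. Itga2b rose by 2.23 ± 0.22 (adjusted p = 1.04e-05).

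Across the 15 libraries, the genes whose log2 CPM ran most like Gata1 were Fam133b (Pearson r = 0.967), Huwe1 (0.954), Tbl1xr1 (0.936), Ruvbl1 (0.936) and Ddx47 (0.932). For Gfi1 they were Hacd4 (0.990), Ctsh (0.988), Aig1 (0.986) and Ano10 (0.986). For Spi1 they were Ctage5 (0.897), Vat1 (0.892), Cldn12 (0.871), Laptm5 (0.870) and Pik3cg (0.868). Cebpa ran most like Zeb2 (0.866), Chrdl1 (0.861), Fbn1 (0.860), Cp (0.859) and Thumpd2 (0.857). These are descriptions over libraries that share 4 groups.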

How the data were processed

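RNA was sequenced from 15 libraries in 4 groups, taken from the labels. Per the labels' protocols, libraries were made by Nextera XT, without strand. The genome build was mm10, per the submitters' processing notes. Aligner and counter: not given in the sources used here. Per the file headers, the deposited tables give total exon reads (counts) and RPKM values for 48737 features. Scaffold copies were added up. The 10 genes have none, and features overlapping 3 of them had 0 reads.

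Counts were fitted in edgeR 4.0.16 (R 4.3.3) with TMM, filterByExpr, a quasi-likelihood F test and Benjamini-Hochberg adjustment over all genes, called at 0.05, and tested on simulated data. Each comparison used its own libraries, and the difference of changes used all 15. RPKM, as the authors deposited it, served for levels between genes and to recover exon lengths and a read total. A group at 0 was set to a floor of 3 reads. Alternatives were DESeq2 1.42.0, its size factors, voom of limma 3.58.1, other filters, the RPKM read total, a length and GC offset, 1 fit of all groups, a replicate block and libraries left out.

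The genes, lists, named-gene rule and tests were chosen with earlier results of these data known. The rule named all 10 genes, up to 3 called genes per list and direction with the largest change and at least 5 CPM in the higher group, and the 5 genes most correlated with Gata1, Gfi1, Spi1 and Cebpa among those with at least 10 CPM on average. A few genes picked by this rule are not reported here. Promoters came from RefSeq (GRCm38.p6).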

Additional observations from a re-analysis of the deposited data

Results flagged for a closer look

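In 30 sets of 4 libraries (10 genes, 3 groups), 2 had a library far from the others by Dixon's ratio, the gap to the nearest library over the whole range, with a critical value of 0.829. Chance gives about 1 in 20 sets. For Gata1 with nifedipine the ratio was 1.0, because 1 library had 2 reads and the others 0. For Gfi1b with nifedipine it was 0.966, with Nifedipine 4 at 36.7 CPM and the others at 25.3, 25.7 and 25.3.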

How the results depend on the processing

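Of 657 values of the 10 genes under alternatives, 570 kept direction and side of the threshold, 22 lost a call, 11 gained one and 54 changed sign. Gfi1b, Spi1 and Nfe2 kept their nifedipine calls in all 16 alternatives. Gata1 and Gfi1 had to differ there, so their calls in the 15 alternatives that tested them add no support. Where a call or sign changed, the cause was not tested. Klf1, with at most 18 reads in a library, was too shallow for the pairwise tests.

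With the RPKM read total, genes of the 10 called lower after 5-FU were 1 and those higher in Control against Untreated 4. That scaling gave 1844 genes lower after 5-FU in place of 3184, and calls higher became 73.6% from 52.9%, 60.1% from 49.8% for Control against Untreated (median 0.18 from -0.05) and 41.5% from 52.3% for the difference of changes (median -0.07 from 0.11). Values of the other sign were 0.02 for Fli1 after 5-FU, 0.02 for Fli1 with nifedipine, 0.06 for Zfpm1, 0.19 for Spi1 and 0.22 for Fli1 (adjusted p = 0.0393) in Control against Untreated, and -0.17 for Gfi1b and -0.01 for Zfpm1 in the difference. With a 10 CPM filter, which tests fewer genes, 1 gene was lower with nifedipine, 1 higher in Control and 0 lower in the difference, Spi1 after 5-FU was -0.04 and Nfe2 in Control against Untreated -0.03.

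Spi1 after 5-FU, 0.00 as reported, was -0.01 with DESeq2, with its size factors, with limma-voom and with the length and GC offset, and -0.02 in 1 fit of all groups. Cebpa after 5-FU was 0.21 with limma-voom. In Control against Untreated, Zfpm1 was 0.31 with the length and GC offset (adjusted p = 0.00264) and was called lower in 7 other alternatives, and Fli1 was 0.00 with no filter. Gfi1b in the difference, 0.01 as reported, was -0.02 with DESeq2 and -0.01 with its size factors and with no filter. Leaving out Untreated 3 and 5-FU day4 4 gave -0.04 for Irf8 after 5-FU, and -0.06 for Gfi1b, -0.31 for Klf1 and 0.25 for Irf8 in the difference, where Cebpa gained a call at 2.87 (adjusted p = 0.0267) from 1.78 (adjusted p = 0.217).

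Leaving out 1 library at a time gave, after 5-FU, -0.04 to 0.04 for Spi1 and -1.47 to 0.59 for Cebpa. With nifedipine it gave -0.14 to 0.07 for Fli1 and -0.05 to 0.54 for Irf8. In Control against Untreated it gave -0.16 to 0.08 for Spi1 and -0.10 to 0.11 for Fli1. In the difference it gave -0.25 to 0.14 for Gfi1b, -0.23 to 1.41 for Klf1, -0.03 to 0.27 for Fli1 and -0.35 to 0.25 for Irf8.

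Whether replicate numbers pair the samples cannot be settled with so few libraries. Untreated 4, Control 1 and Control 2 were most correlated with the same number in the treated group. The other Untreated and Control libraries were not. Correlations of same-numbered deviations ran from -0.15 to 0.148 between Untreated and 5-FU and from 0.004 to 0.027 between Control and Nifedipine. With the replicate block, 3 of the 10 genes were lower after 5-FU in place of 4, since Gfi1b was -0.54 (adjusted p = 0.0707). With nifedipine 3 were higher and 3 lower, as without the block. Irf8 with nifedipine was -0.11 and Gfi1b in the difference -0.17 with the block.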
